A study of Mus musculus with 9 samples.

Results

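The genes described here are 9 regulators of blood clotting and clot removal: F3, F13a1, Tfpi, Serpine2, Thbd, Procr, Plat, Plau and Plaur. They were picked by name from the non-control probes of the array files and from the gene names of the deposited log2 table, and they were 9 of 37316 named genes. In all, 17 probes carried their names. The samples were enriched for mature megakaryocytes (mMKs), the platelet-forming cells of bone marrow. They came from the femur and tibia of male mice, by selecting CD41+ and then CD42d+ cells. Control mice (Ctrl) were sham-irradiated. The irradiated mice received a single total-body dose of 5 Gy γ-rays and were sampled at 1 or 3 days post irradiation (1 dpi and 3 dpi). Each of the 3 groups had 3 arrays, from separate experiments with different donors. The labels give no strain, no age and no statement on pooling for these samples. The methods name C57BL/6 as the wild-type mice of the study.

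As background, tissue factor, the product of F3, starts the cascade that ends in thrombin and fibrin, and tissue factor pathway inhibitor, the protein C system and the serpins restrain it. Tissue-type and urokinase-type plasminogen activators turn plasminogen into plasmin, which dissolves fibrin. Megakaryocytes supply platelets with clotting proteins, among them the A subunit of factor XIII, which crosslinks fibrin.

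Each RNA sample was labelled with Cy3 and hybridized to its own Agilent array with 59305 non-control spots. On the Ctrl arrays 69.1%, 79.5% and 80.8% of these spots were well above background, against 72.3%, 74.8% and 75.6% at 1 dpi and 81.8%, 81.6% and 81.8% at 3 dpi. The values below are log2 signal minus the 75th percentile of the same array, so that 0 is the level of that percentile. Before this scaling, the 75th percentile was 10.03, 10.62 and 10.66 on the Ctrl arrays, 9.33, 9.45 and 9.43 at 1 dpi and 10.37, 10.55 and 10.53 at 3 dpi, on the log2 scale. The arrays at 1 dpi were thus the dimmest of the 3 groups, and the part of this in the results was not tested. Ctrl replicate 1 was on a slide of its own, and the other 8 arrays shared the other slide. Differences between groups were tested in limma. A gene counted as called when it differed 2-fold or more and its adjusted p was under 0.05. Of the 9 members, 8 passed the filter on dim probes and were tested among 29410 genes, and Plat did not pass. After scaling, the median log2 difference of all tested genes was 0.25 at 1 dpi against Ctrl, 0.11 at 3 dpi against Ctrl and -0.11 at 3 dpi against 1 dpi. Changes of the members relative to these medians are given beside their log2 fold changes. The comparisons with Ctrl share the same 3 Ctrl arrays. The number of arrays limits the precision of every value below.

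At 1 dpi, Serpine2, which encodes a serpin that inhibits thrombin and plasminogen activators, was the member called higher: 3.13-fold over Ctrl. With 1 of 8 tested members higher, the share of all tested genes called higher was 12.3%. In limma 0 of 8 members were called lower, against 2.87% of all genes, and at an unadjusted p under 0.05 with no minimum fold 4 were higher and 2 lower, by limma (39.3% and 22.8% of all genes) and by the methods' two-group test (31.2% and 22.1%) alike. At an adjusted p under 0.05 with no minimum fold, 6 of 8 members differed (F3, Serpine2, Plau and Plaur higher, Tfpi and Procr lower), against 55.9% of all genes. This count was 5 to 7 over the alternatives, and the members in it changed. With arrays centred on their median F3 was at 0.15 (adjusted p = 0.456) and Plau at 0.12 (adjusted p = 0.505). F13a1 counted as lower there, and as higher in the deposited table and with the mean of probes. Tfpi did not count under several alternatives, among them the replicate block, the methods' two-group test with adjusted p and no filter. The arrays of the groups did not overlap for 7 of 8 members, against 67.5% of all genes. The median log2 fold change of the 8 members was 0.27.

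At 3 dpi, 3 of 8 tested members were called higher than in Ctrl: Serpine2, Plau, the gene of the urokinase-type plasminogen activator, and Thbd, the gene of thrombomodulin. Of all tested genes 6.98% were called higher. In limma 0 were called lower, against 1.82% of all genes, and at an unadjusted p under 0.05 with no minimum fold 7 were higher and 1 lower by both tests, against 22.7% and 18.9% of all genes in limma and 18.5% and 17.2% in the two-group test. Relative to the median of all genes, the 3 log2 fold changes were 0.99 for Serpine2, 0.98 for Plau and 0.89 for Thbd, each just under 2-fold. At an adjusted p under 0.05 with no minimum fold, 8 of 8 tested members differed, against 32% of all genes, and the arrays did not overlap for 8 of 8, against 47%. With arrays centred on their median the count at this adjusted p was 6 of 8, without F3 (adjusted p = 0.121) and Plaur (adjusted p = 0.0852). The median log2 fold change of the 8 members was 0.80.

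Between the time points, F13a1 rose 2.09-fold from 1 to 3 dpi, as 1 of 8 tested members, where 3.97% of all genes were called higher. In limma 0 were called lower, against 4.82% of all genes, and at an unadjusted p under 0.05 with no minimum fold 4 were higher and 2 lower by both tests, against 22.7% and 29.8% of all genes in limma and 23.8% and 33.7% in the two-group test. At an adjusted p under 0.05 with no minimum fold, 6 of 8 members differed, against 44.6% of all genes, and the arrays did not overlap for 6 of 8, against 65.5%. The first of these counts was 4 to 6 over the alternatives, with 4 under median centring and in the deposited table. The median log2 fold change of the 8 members was 0.35. This comparison is also the test of whether the change from Ctrl differed between the time points.

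**Figure D1:**
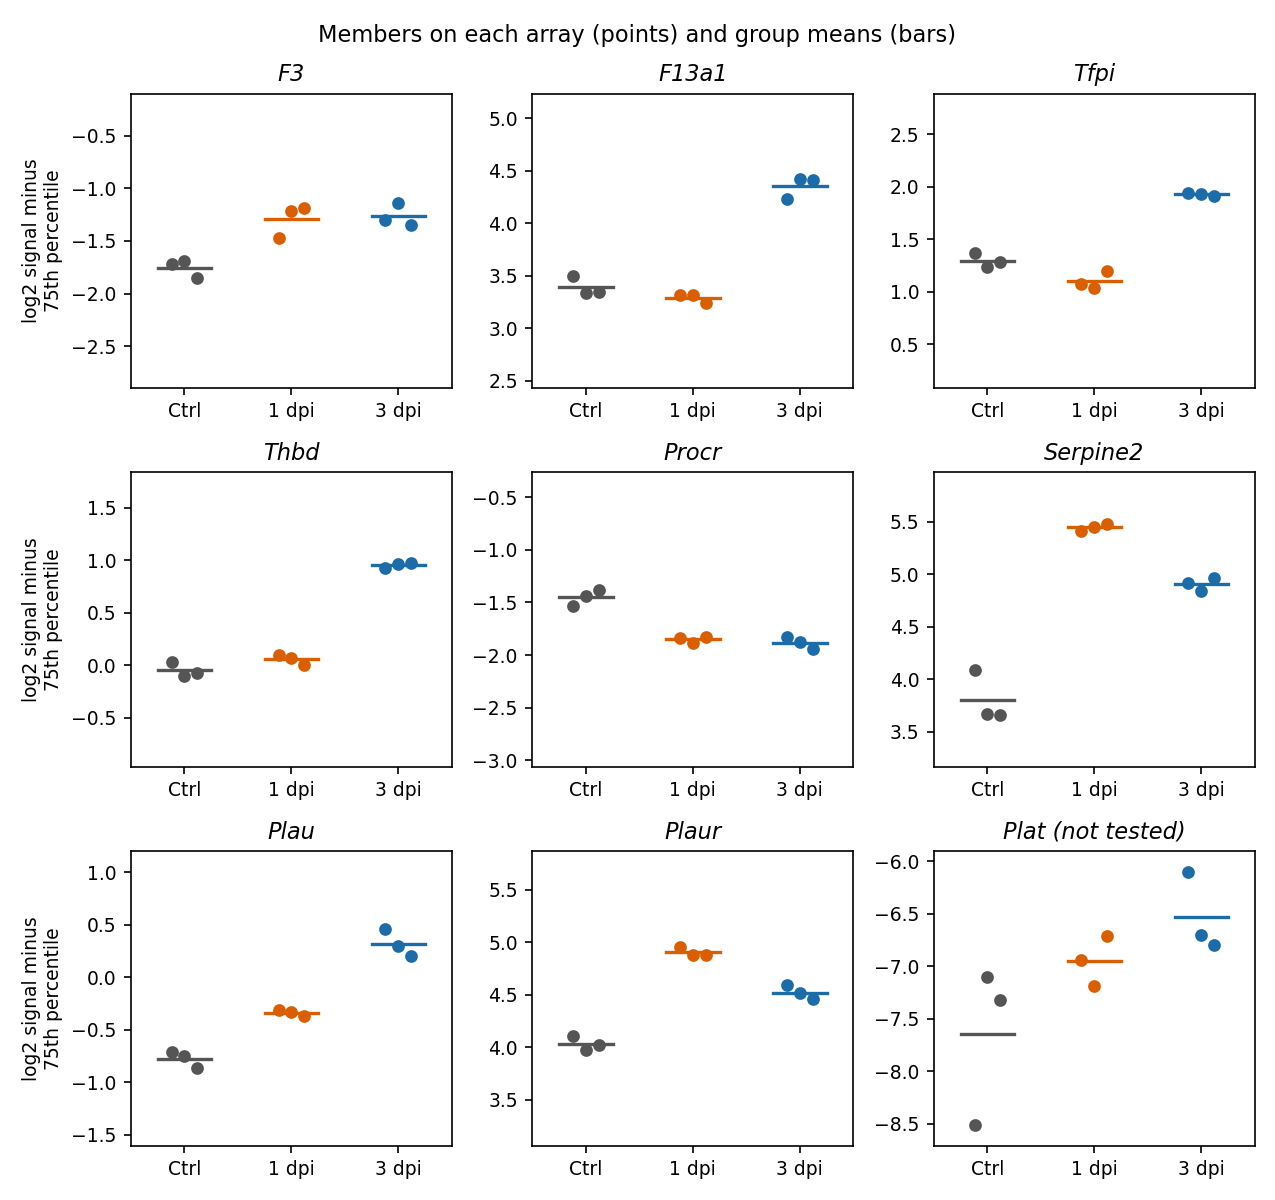
Log2 signal minus the array's 75th percentile (y axis, the same span in every panel) for the 9 members in Ctrl, 1 dpi and 3 dpi (x axis), with 1 point per array and a bar at each mean of 3 arrays. On the probes shown, 1 per gene, Serpine2 and Plaur are highest at 1 dpi, and Procr is highest in Ctrl. F13a1, Tfpi, Thbd and Plau are highest at 3 dpi on these probes. Plat was well above background on 2 of 3 arrays at 3 dpi and on none of the other arrays.

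F3 lay below the 75th percentile of all 9 arrays. Its product, tissue factor, binds factor VIIa to start coagulation. F3 was at -1.72, -1.69 and -1.85 on the Ctrl arrays, -1.47, -1.22 and -1.19 at 1 dpi and -1.30, -1.14 and -1.35 at 3 dpi. Each irradiated array was above each Ctrl array, and the groups at 1 and 3 dpi overlapped. The log2 fold change was 0.46 (SE 0.10, adjusted p = 0.00578) at 1 dpi and 0.49 (SE 0.10, adjusted p = 0.00678) at 3 dpi, under the 2-fold minimum. Set against the median of all genes, F3 was at 0.21 at 1 dpi and 0.38 at 3 dpi. Between the time points the log2 fold change was 0.03 (adjusted p = 0.814), and without 1 dpi replicate 1 or 3 dpi replicate 2 that value was -0.06 or -0.03.

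F13a1, the A subunit of factor XIII, gave different patterns on its 3 probes. On the probe that stood for the gene, the values were 3.50, 3.34 and 3.34 in Ctrl, 3.32, 3.31 and 3.24 at 1 dpi and 4.23, 4.42 and 4.41 at 3 dpi. The 3 arrays at 3 dpi lay above all others, and Ctrl lay just above 1 dpi. The log2 fold change was -0.10 (SE 0.08, adjusted p = 0.298) at 1 dpi, 0.96 (SE 0.08, adjusted p = 6.22e-05) at 3 dpi and 1.06 (SE 0.08, adjusted p = 6.41e-05) from 1 to 3 dpi. The value at 3 dpi was 1.95-fold, just under the minimum, and it passed without Ctrl replicate 1 (1.01) and without 3 dpi replicate 1 (1.02). After subtracting the median of all genes, F13a1 was at -0.35, 0.85 and 1.17 in the 3 comparisons. The value at 1 dpi had an adjusted p under 0.05 in opposite directions over the alternatives. It was lower with arrays centred on their median (-0.41), and higher with the mean of probes and in the deposited table. With the mean of its probes, the value at 1 dpi was 0.23 and the call from 1 to 3 dpi was lost (0.54). In the deposited table, which holds A_55_P2186125, F13a1 was at 0.83 at 1 dpi, was called at 3 dpi (1.12) and was not called from 1 to 3 dpi (0.29).

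The F13a1 probes are shown by their leading 30 of 60 bases, 5′ to 3′, since the change at 1 dpi depended on the probe. All lie on the minus strand of chromosome 13 in mm9, the build named in the array files. A_51_P507801 stood for the gene and lies at chr13:36959214-36959273. A_55_P2186125 lies at chr13:37063829-37063888, and A_55_P2739032, designed on a cDNA clone, at chr13:37061516-37061575.
A_51_P507801: ctggtttacttctaagtcattgataggttc
A_55_P2186125: ctgaatgacattggagtgatattttatggg
A_55_P2739032: aaattagaatggcatcccagcacagtcagg
On A_55_P2186125, the values were -2.65, -2.48 and -2.65 in Ctrl, -1.42, -1.61 and -1.80 at 1 dpi and -1.54, -1.36 and -1.35 at 3 dpi. This probe was thus already higher at 1 dpi, by 0.99 (adjusted p = 0.000243), and it was called at 3 dpi at 1.17 (adjusted p = 0.00014). It differed by 0.19 (adjusted p = 0.201) from 1 to 3 dpi, and the called rise of the gene between the time points was that of A_51_P507801. A_55_P2739032 had log2 fold changes of -0.19, 0.19 and 0.37 in the 3 comparisons, none of them called.

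Across probes, 3 of 15 tested probes of the members were called higher at 1 dpi, against 11.6% of the 44300 probes tested. At 3 dpi, 6 of 15 were called higher, against 6.58%. Between the time points, 2 of 15 were called higher, against 3.75%. These were A_51_P507801 of F13a1 and a probe of Tfpi.

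**Figure D2:**
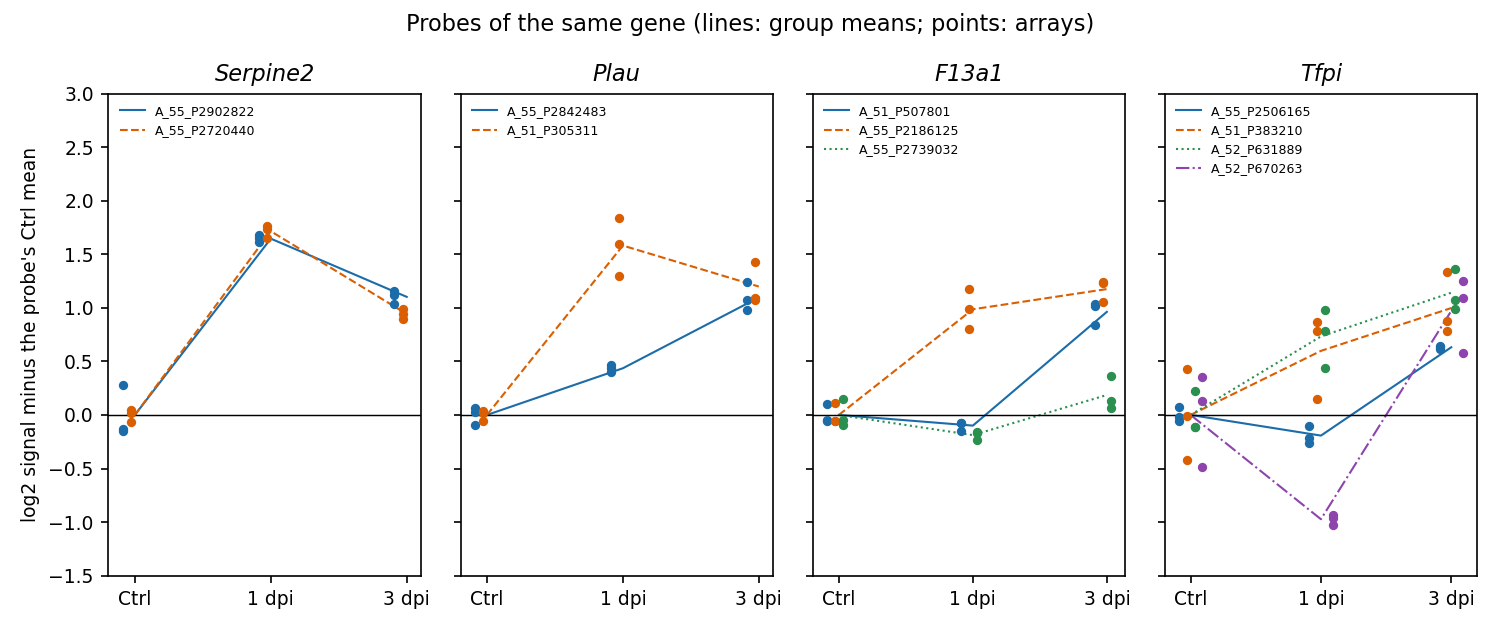
Log2 signal of each tested probe minus its own Ctrl mean (y axis) in Ctrl, 1 dpi and 3 dpi (x axis), for the members with more than 1 tested probe, with 1 point per array and lines through the group means. For F13a1, Tfpi and Plau the probes of a gene differ in direction in at least 1 comparison, and for Serpine2 both probes are highest at 1 dpi.

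Tfpi encodes tissue factor pathway inhibitor, which blocks factor Xa and the complex of tissue factor with factor VIIa. On the probe that stood for the gene, the values were 1.37, 1.24 and 1.28 in Ctrl, 1.08, 1.03 and 1.19 at 1 dpi and 1.94, 1.93 and 1.91 at 3 dpi. The arrays at 1 dpi lay below Ctrl and those at 3 dpi above it, with no overlap. Tfpi had a log2 fold change of -0.19 (SE 0.07, adjusted p = 0.0389) at 1 dpi, 0.63 (SE 0.07, adjusted p = 0.000245) at 3 dpi and 0.82 (SE 0.07, adjusted p = 9.22e-05) from 1 to 3 dpi, none of them 2-fold. With the median of all genes subtracted, these were -0.44, 0.52 and 0.93. With the mean of its 4 probes, the value at 1 dpi was 0.04, and without Ctrl replicate 1 it was -0.16 (adjusted p = 0.0684). The adjusted p at 1 dpi was not under 0.05 with normexp, no filter, 2 groups at a time, the replicate block or the two-group test. The same held without Ctrl replicate 3, 1 dpi replicate 1 or 2, or 3 dpi replicate 2 or 3. From 1 to 3 dpi Tfpi was called with arrays centred on their median (1.02). In the deposited table, which holds the probe on transcript variant 2, it was called at 1 dpi (-1.01) and from 1 to 3 dpi (1.97).

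The Tfpi probes are shown because they differed at 1 dpi. The leading 30 of 60 bases are printed, 5′ to 3′, and all lie on the minus strand of chromosome 2 in mm9. A_55_P2506165, which stood for the gene, lies at chr2:84273055-84273114 and A_52_P631889 at chr2:84313860-84313919, both on transcript variant 1. A_52_P670263, on transcript variant 2, lies at chr2:84281022-84281081, and A_51_P383210, on an Ensembl transcript, at chr2:84283118-84283177.
A_55_P2506165: gccagttatgatcacaaacattacataccc
A_52_P631889: tgaagacggtataattttgggacctcatct
A_52_P670263: tggtaaccctaactcactttaggtttatag
A_51_P383210: ttgtgggtagacctacctgatcattcttgg
The probe on transcript variant 2 was at -0.55, 0.07 and 0.29 in Ctrl, -1.09, -0.99 and -1.03 at 1 dpi and 0.51, 1.03 and 1.18 at 3 dpi. It was lowest at 1 dpi and rose 3.85-fold from 1 to 3 dpi (log2 fold change 1.94, SE 0.24, adjusted p = 0.000524). Its Ctrl arrays were spread widely, with replicate 1 the lowest, and it was -0.97 at 1 dpi (adjusted p = 0.00995) and 0.97 at 3 dpi (adjusted p = 0.016), both under 2-fold. A_52_P631889 was higher at both times, by 0.73 (adjusted p = 0.00718) at 1 dpi and 1.14 (adjusted p = 0.00138, called) at 3 dpi. On A_51_P383210, the log2 fold change was 0.60 (adjusted p = 0.0964) at 1 dpi and 1.00 (adjusted p = 0.0257) at 3 dpi, where it fell just under 2-fold. At 3 dpi, all 4 probes were higher than in Ctrl, with 1 of 4 called.

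Serpine2 encodes protease nexin-1, a serpin that blocks thrombin as well as both plasminogen activators. It was at 4.09, 3.67 and 3.66 in Ctrl, 5.42, 5.45 and 5.48 at 1 dpi and 4.92, 4.84 and 4.96 at 3 dpi. The 3 groups did not overlap, with 1 dpi the highest. Ctrl replicate 1, the array on its own slide, was the highest of the Ctrl arrays. The log2 fold change was 1.65 (SE 0.12, 95% confidence interval 1.37 to 1.92, adjusted p = 2.89e-05) at 1 dpi, and Serpine2 was 2.15-fold higher than in Ctrl at 3 dpi (adjusted p = 0.000262). It then differed by -0.54 (SE 0.12, adjusted p = 0.00718) from 1 to 3 dpi. This difference was -0.79 to -0.29 over the alternatives. Its adjusted p was not under 0.05 with quantile normalization or with arrays centred on their median. Relative to the median of all genes, the change at 1 dpi was 1.40. The call at 1 dpi was made in 22 of 22 alternative settings, with log2 fold changes of 1.33 to 1.79. Leaving out a 3 dpi array, 2 groups at a time or no minimum fold could not change this fold. Within the shared slide, that is without Ctrl replicate 1, Serpine2 was at 1.79 at 1 dpi and 1.24 at 3 dpi. The call at 3 dpi was lost with arrays centred on their median (0.98) and in the deposited table (0.94), which holds another probe. That probe, A_55_P2720440, had log2 fold changes of 1.71 (adjusted p = 1.52e-06, called) at 1 dpi, 0.94 at 3 dpi and -0.77 from 1 to 3 dpi.

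Thbd and Procr belong to the protein C system and went in different directions. Thrombomodulin, the product of Thbd, binds thrombin and makes it activate protein C. Thbd was at 0.03, -0.10 and -0.07 in Ctrl, 0.10, 0.07 and 0.00 at 1 dpi and 0.93, 0.96 and 0.97 at 3 dpi. Ctrl and 1 dpi overlapped, and all 3 arrays at 3 dpi lay above them. Thbd had a log2 fold change of 0.11 (SE 0.06, adjusted p = 0.171) at 1 dpi, 1.00 (SE 0.06, adjusted p = 1.36e-05) at 3 dpi and 0.90 (SE 0.06, adjusted p = 4.81e-05) from 1 to 3 dpi. At 1 dpi it was -0.21 with arrays centred on their median and -0.14 relative to the median of all genes. The value at 3 dpi was on the threshold of 2-fold, and it dropped below it without Ctrl replicate 2 (0.98), Ctrl replicate 3 (0.99), 3 dpi replicate 2 (1.00) or 3 dpi replicate 3 (0.99). Within the shared slide it was 1.04. It also dropped below the threshold with 4 other scalings or tables, at 0.88 to 1.00, and its adjusted p was at most 0.00151 over the alternatives. From 1 to 3 dpi Thbd was called with arrays centred on their median (1.09).

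Procr encodes the endothelial protein C receptor, which presents protein C to the complex of thrombin and thrombomodulin. It was at -1.53, -1.44 and -1.38 in Ctrl, -1.84, -1.89 and -1.83 at 1 dpi and -1.83, -1.88 and -1.94 at 3 dpi. All 6 irradiated arrays lay below the Ctrl arrays. The log2 fold change was -0.40 (SE 0.06, adjusted p = 0.00135) at 1 dpi and -0.43 (SE 0.06, adjusted p = 0.00148) at 3 dpi, under the 2-fold minimum. With the median of all genes subtracted, Procr was at -0.65 and -0.54. Procr at 3 dpi differed from 1 dpi by -0.03 (adjusted p = 0.722), with a positive sign (0.06 to 0.16) in 4 other scalings or tables.

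Plau, Plaur and Plat, like Serpine2, act in fibrinolysis. Plau, for urokinase, was at -0.71, -0.75 and -0.87 in Ctrl, -0.32, -0.34 and -0.37 at 1 dpi and 0.46, 0.30 and 0.20 at 3 dpi. The 3 groups did not overlap, with 3 dpi the highest. Plau was at a log2 fold change of 0.44 (SE 0.08, adjusted p = 0.00308) at 1 dpi and 0.66 (SE 0.08, adjusted p = 0.000604) from 1 to 3 dpi, and at 3 dpi it was 2.14-fold higher than in Ctrl (95% confidence interval 0.91 to 1.29 on the log2 scale, adjusted p = 3.99e-05). Less the median of all genes, Plau was at 0.19 at 1 dpi. Within the shared slide, Plau at 3 dpi was at 1.13. The call at 3 dpi was lost with arrays centred on their median (0.97) and in the deposited table (0.92). At 1 dpi Plau was called with the mean of its probes (1.01) and in the deposited table (1.08). A second Plau probe, A_51_P305311, whose 60 bases span 367 genome bases, was at -5.76, -5.78 and -5.85 in Ctrl, -4.20, -4.49 and -3.95 at 1 dpi and -4.71, -4.72 and -4.37 at 3 dpi. On it, Plau was called at both times, at 1.58 (adjusted p = 0.00011) and 1.20 (adjusted p = 0.000623), and it was -0.38 (adjusted p = 0.07) from 1 to 3 dpi.

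Plaur encodes the receptor that holds urokinase at the cell surface. It was at 4.10, 3.97 and 4.02 in Ctrl, 4.95, 4.88 and 4.88 at 1 dpi and 4.59, 4.51 and 4.46 at 3 dpi. The 3 groups did not overlap, and 1 dpi was the highest, as for Serpine2. The log2 fold change was 0.87 (SE 0.06, adjusted p = 3.45e-05, 1.83-fold) at 1 dpi and 0.49 (SE 0.06, adjusted p = 0.000858) at 3 dpi. It was lower at 3 dpi than at 1 dpi by a log2 difference of -0.39 (SE 0.06, adjusted p = 0.00233). With arrays centred on their median this difference was -0.19 (adjusted p = 0.297). Less the median of all genes, the values against Ctrl were 0.62 and 0.37.

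Plat, the gene of tissue-type plasminogen activator, was near background. Its probe A_52_P409833 was at -8.51, -7.10 and -7.32 in Ctrl, -6.94, -7.19 and -6.71 at 1 dpi and -6.10, -6.70 and -6.80 at 3 dpi. It was well above background on 2 of 3 arrays at 3 dpi and on none of the other 6, and its other probe on 0 of 9. No fold is given for Plat.

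**Figure D3:**
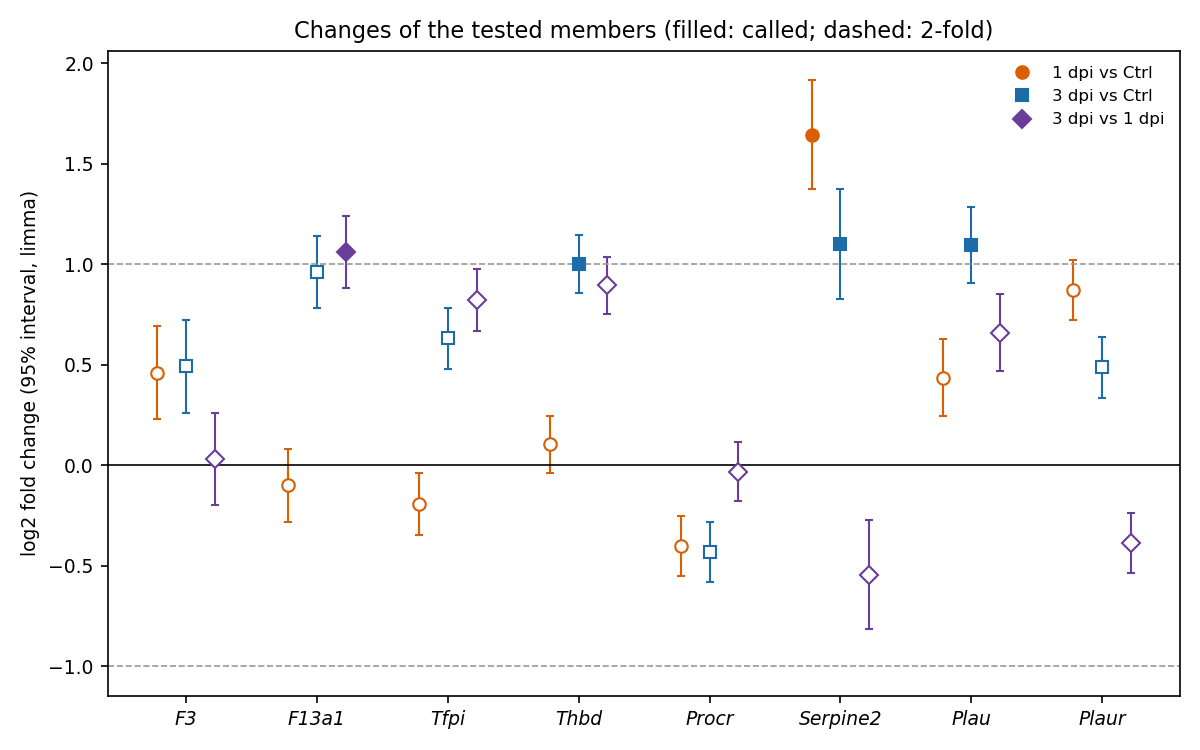
Log2 fold changes (y axis) of the 8 tested members (x axis) against Ctrl at 1 dpi and 3 dpi and from 1 to 3 dpi, with 95% confidence intervals, filled points for calls and dashed lines at 2-fold. Serpine2 has the largest change at 1 dpi (1.65), and 3 members are at or above 1.00 at 3 dpi.

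The values over the 9 arrays, on the 1 probe that stood for each gene, put the members into a few patterns. Other probes of F13a1, Tfpi and Plau had different patterns, as given above, and were not used here. F13a1, Tfpi and Thbd had Pearson correlations of 0.94 to 0.98 with each other, and Serpine2 and Plaur had 0.98. Plau was at 0.94 with Thbd, 0.85 with F13a1 and 0.79 with Tfpi. Procr was at -0.91 with both F3 and Serpine2. The 9 arrays share 3 groups, so that each correlation mainly compares group means, and no test was made. Among 24006 genes well above background on all 9 arrays, those most like Thbd were Aplp2 (0.998), Nacc2 (0.996) and C1qa (0.996), which encodes a chain of complement C1q made by macrophages. Those most like Plau were Gpr34 (0.998), Fnip2 (0.996) and Tigar (0.995), and those most like F13a1 were Coq7 (0.996), Lgalsl (0.995) and Tle1 (0.993). For Tfpi they were Psmd14 (0.998), Snx2 (0.995) and C9orf72 (0.993). For Plaur they were Rab7b (0.998), Lgals3bp (0.997) and Slc15a3 (0.997). For Serpine2 they were Phf11b (0.996), 4933432I03Rik (0.995) and Ddias (0.993). For Procr they were Vamp2 (0.996), Pck1 (0.991) and Mex3a (0.985), and for F3 they were Ngfr (0.956), Rasl2-9 (0.955) and Adcy3 (0.953).

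Promoter sequences from RefSeq (GRCm38.p6), with 250 bases before and 50 after the start, were found for 6 of 9 members, in 8 windows. The members without an entry were Thbd, Plat and Plau. On both strands, AP-1 (TGANTCA) was found in the windows of F3, Procr and Plaur, and in 2565 of 32851 promoters (7.81%). The interferon-stimulated response element was searched for too, and it was found in no window of the members and in 3.44% of all promoters. The motifs were chosen after the windows could be read, and a match is a description only. The 30-base stretches are shown with 1 AP-1 match each in capitals, and the pair from F3 overlap, so that each also holds the other's match in small letters. They lie at chr3:121723380-121723409 and chr3:121723391-121723420, chr2:155751052-155751081 and chr7:24462403-24462432, all on the plus strand.
F3 at -146: cgcggcgctgtTGAATCAcggttgagtcac
F3 at -135: tgaatcacggtTGAGTCAcccctttcgggg
Procr at -154: ccccaccccccTGACTCAgcggcgacctac
Plaur at -69: acccctggagcTGACTCActctttagcaaa
The positions are counted from the start site to the motif. Of the 3 genes with AP-1 letters, Procr was lower and F3 and Plaur were higher in irradiated mice, each under 2-fold. A role of these letters was not tested.

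The other genes of coagulation and fibrinolysis were followed in 4 lists with 43 genes, of which 36 were tested. Serpind1 was well above background on no array of Ctrl or 1 dpi and is not counted at 1 dpi. The limma calls against Ctrl at 1 dpi were 6 up and 2 down of 35, against 12.3% and 2.87% of all genes. The same comparison at 3 dpi gave 7 up and 1 down of 36, against 6.98% and 1.82%, and the time points differed for 8 of 36, 6 up and 2 down, against 3.97% and 4.82%. The calls against Ctrl at 3 dpi include Serpind1 and Tfpi2, which passed the filter through 3 dpi alone, and those between the time points include Serpind1. Among genes well above background on all 9 arrays, 31 were tested, with 6 up and 2 down at 1 dpi, against 10.5% and 2.55% of all such genes, 5 up and 1 down at 3 dpi, against 5.36% and 1.83%, and 5 up and 2 down from 1 to 3 dpi, against 2.7% and 4.69%. Over the counted genes of the lists, the median log2 fold change was 0.35, 0.14 and 0.01 in the 3 comparisons, beside 0.25, 0.11 and -0.11 for all genes. Never well above background were F13b, Fgg, Serpina5 and F2rl1. The brightest genes of the lists were F5, Anxa5, Anxa2 and F2r. The genes with the largest changes were named, at most 6 in a comparison, with F2r and Serpinc1 added after their values were seen, and each kept its direction in every alternative that tested it.

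Of 15 tested coagulation factors, cofactors and their enzymes, 3 were higher and 1 lower at 1 dpi, and 2 were higher at 3 dpi. Of all genes, 12.3% were higher and 2.87% lower at 1 dpi, and 6.98% were higher at 3 dpi. At 1 dpi 2 were higher with quantile normalization or median centring, and 1 with normexp and quantile normalization. In the deposited table at 3 dpi, 2 were higher and 1 lower of 19 tested. The gene called lower there was not called in the main fit. Kng1, which encodes kininogen, was at -3.17, -3.24 and -3.27 in Ctrl, -0.51, -1.05 and -0.72 at 1 dpi and 0.70, 0.42 and 0.74 at 3 dpi. Its 3 groups did not overlap, and it rose at both times, by 2.46 (SE 0.14, adjusted p = 1.11e-05) and 3.84 (SE 0.14, adjusted p = 1.19e-06), and from 1 to 3 dpi by 1.38 (adjusted p = 0.000285). F8, for the cofactor of factor IX, was dim in Ctrl, at -5.44, -5.04 and -5.27. The lowest signals well above background on these arrays were -6.22, -6.69 and -6.86. F8 rose by 2.22 (SE 0.11, adjusted p = 4.04e-06) at 3 dpi. F7, for the protease that tissue factor binds, was -1.15, -0.49 and -0.32 in Ctrl, -3.34, -3.13 and -3.05 at 1 dpi and -1.39, -0.04 and -0.03 at 3 dpi. It fell by 2.52 on the log2 scale at 1 dpi (SE 0.38, adjusted p = 0.00111) and rose by 2.69 from 1 to 3 dpi (adjusted p = 0.00113), and Ctrl and 3 dpi overlapped. Fga, for the fibrinogen alpha chain, was dim too, at -5.46, -4.12 and -4.18 in Ctrl, with replicate 1 the lowest. Fga rose by 1.57 (SE 0.36, adjusted p = 0.00802) at 1 dpi and fell by 1.52 on the log2 scale from 1 to 3 dpi (adjusted p = 0.0113). The call of Fga at 1 dpi was made in 19 of 22 alternatives, and its value in the deposited table was 0.04. The call from 1 to 3 dpi was lost there (-0.20) and with normexp and quantile normalization (-0.74). With normexp and quantile normalization, F8 at 3 dpi was 1.07. At 1 dpi F8 was called at 1.08 (SE 0.11, adjusted p = 0.000145), and this call was made in 17 of 22 alternatives. It was lost in the other scalings and the deposited table (0.29 to 0.76) and without Ctrl replicate 1 (0.98).

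Of the natural anticoagulants, 2 of 8 were called higher at 1 dpi and 4 of 9 at 3 dpi, against 12.3% and 6.98% of all genes. Among the 7 well above background on all 9 arrays, 2 were called higher at each time, against 10.5% and 5.36% of all such genes. At 3 dpi these were Serping1 and Pros1, which rose by 1.47 (SE 0.12, adjusted p = 5.82e-05). The call of Pros1 was made in 22 of 22 alternatives. At 1 dpi these were Serping1 and Serpinc1, for antithrombin, whose call was made in 15 of 22 alternatives and lost without Ctrl replicate 1 (0.95), in the 4 other scalings or tables (0.58 to 0.96), with the mean of its probes (0.73) and by the two-group test (adjusted p = 0.0624). Serping1, for C1 inhibitor, which restrains factor XIIa and kallikrein, was at -1.38, -1.86 and -1.71 in Ctrl, 0.13, -0.25 and -0.13 at 1 dpi and 1.42, 1.19 and 1.45 at 3 dpi. It rose by 1.57 (SE 0.15, adjusted p = 0.000124) and 3.01 (SE 0.15, adjusted p = 4.84e-06), and by 1.44 (adjusted p = 0.000288) from 1 to 3 dpi. Serpind1, for heparin cofactor II, a thrombin inhibitor, was well above background on 3 of 3 arrays at 3 dpi, the group through which it passed the filter. At 3 dpi it was at least 3.37-fold higher than in Ctrl and at least 1.90-fold higher than at 1 dpi. No p is given for Serpind1, since it passed the filter through the group where it is high. Serpind1 was not called with normexp and quantile normalization. Tfpi2, a relative of Tfpi, passed the filter through 3 dpi alone too, with 1 of 3 arrays in Ctrl and 0 of 3 at 1 dpi well above background. Its call at 3 dpi (log2 fold change 1.83) rests on Ctrl values mostly near background, and its p is left out for the same reason. The call was made in 12 of 21 alternative settings, with 0.21 under normexp and quantile normalization. It was lost without Ctrl replicate 1 (1.63) or 2 (1.61) and without 3 dpi replicate 1 (1.80), 2 (1.80) or 3 (1.88).

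In fibrinolysis, 1 of 9 tested genes was higher and 1 lower at 1 dpi, and 1 was higher at 3 dpi. The shares of all genes were 12.3% higher and 2.87% lower at 1 dpi and 6.98% higher at 3 dpi. Lrp1, for an endocytic receptor that clears complexes of proteases with serpins, was at -0.88, -0.99 and -1.07 in Ctrl, 0.35, 0.44 and 0.40 at 1 dpi and 1.28, 1.21 and 1.16 at 3 dpi. Its 3 groups did not overlap, and it rose by 1.38 (SE 0.07, adjusted p = 5.5e-06) at 1 dpi and 2.20 (SE 0.07, adjusted p = 5.37e-07) at 3 dpi. Over its tested probes, Lrp1 was at 1.22 to 1.65 at 1 dpi and 1.03 to 2.20 at 3 dpi. From 1 to 3 dpi the probes were at -0.19 to 0.82. Cpb2, for a carboxypeptidase that slows fibrin breakdown, fell by 1.39 on the log2 scale at 1 dpi (SE 0.39, adjusted p = 0.0188). Without 1 dpi replicate 1, Cpb2 was at -1.19 (adjusted p = 0.0658) and was not called. It rose by 1.15 (adjusted p = 0.0472) from 1 to 3 dpi, where the groups overlapped, and that call was made in 10 of 22 alternatives.

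Of 3 tested protease-activated receptors, 0 were called in limma at 1 dpi and from 1 to 3 dpi. In these comparisons 1 and 3 were lower at an unadjusted p under 0.05 with no minimum fold by both tests. The shares of all genes lower in this way were 22.8% and 29.8% in limma. At 3 dpi 1 receptor was called lower, against 1.82% of all genes. This was F2r, for a thrombin receptor, which fell by 1.43 on the log2 scale (SE 0.10, adjusted p = 2.32e-05). At 1 dpi F2r was at -0.99 (adjusted p = 0.000129), just under 2-fold, and it was called lower with median centring, with normexp and quantile normalization, and without Ctrl replicate 2, Ctrl replicate 3 or 1 dpi replicate 2.

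**Figure D4:**
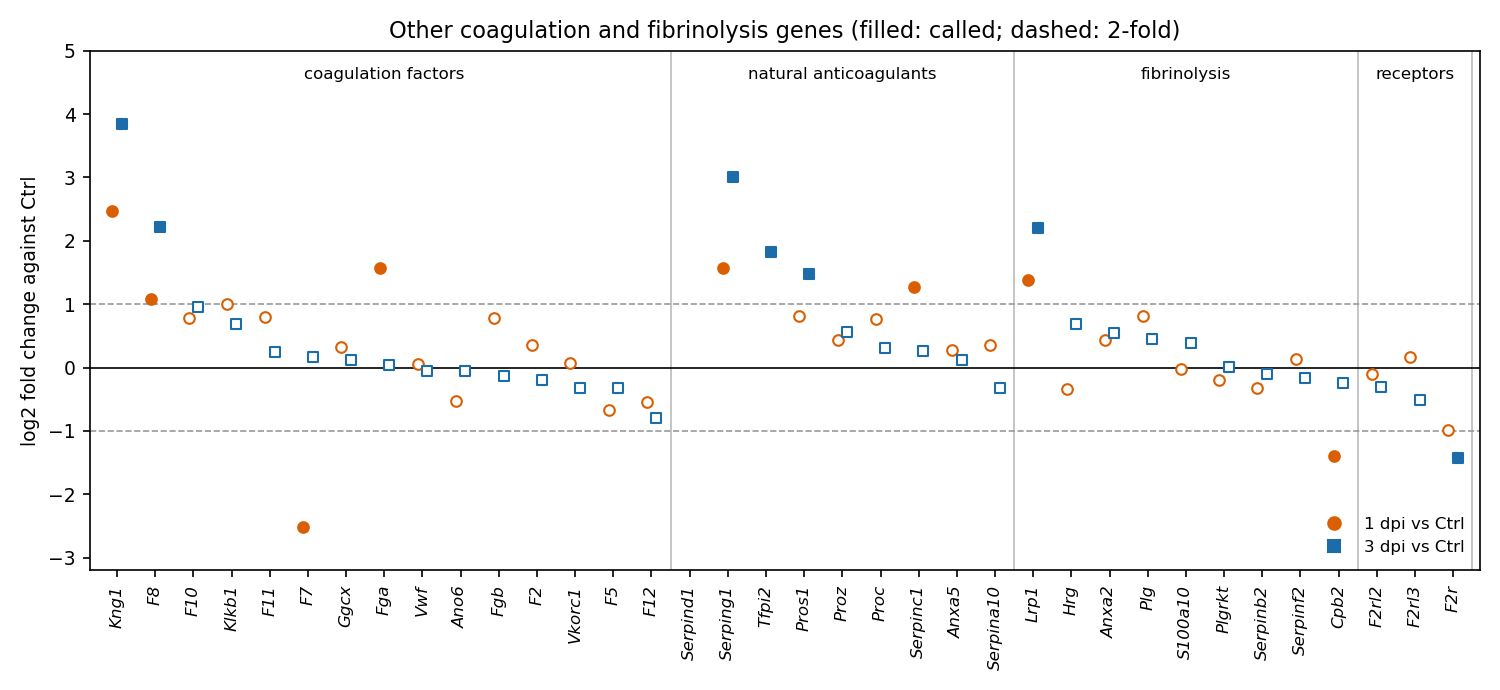
Log2 fold changes against Ctrl (y axis) of the other coagulation and fibrinolysis genes at 1 dpi and 3 dpi, by list (x axis), with filled points for genes called and dashed lines at 2-fold. Values against a group with no array well above background (all of Serpind1 and Tfpi2 at 1 dpi) are left out.

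Markers of cell types moved in the same samples. In bulk samples, fewer cells of a type and less RNA per cell cannot be told apart. Of 17 megakaryocyte markers, limma called 0 at 1 dpi, where 4 were higher and 7 lower at an unadjusted p under 0.05 with no minimum fold, or 4 and 6 by the two-group test. At 3 dpi 7 were higher and 3 lower at an unadjusted p under 0.05 with no minimum fold, by both tests. Of the 17, limma called 1 lower at 3 dpi: Gfi1b, for a transcription factor of megakaryocytes and red cells, at -1.19 (adjusted p = 3.23e-05). Their summed signal, in units of the array's 75th percentile, was 168, 150 and 149 in Ctrl, 157, 144 and 142 at 1 dpi and 166, 163 and 161 at 3 dpi, and the brightest was Pf4, for platelet factor 4. The ratio of the mean sum at 1 dpi to that in Ctrl was 0.95, and 0.75 with arrays centred on their median. All 17 were well above background on at least 1 array, as were the markers of the other lists.

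Of the endothelial, stromal and macrophage markers, more were called higher than lower at both times. Of 13 stromal markers, 10 were higher at 1 dpi and 9 at 3 dpi, and their summed signal was 10.5, 10.1 and 10.5 in Ctrl, 51.7, 44.5 and 48.5 at 1 dpi and 94.8, 86.6 and 93.2 at 3 dpi. The brightest was Cxcl12, a chemokine of marrow stroma. Of 13 endothelial markers, 6 were higher at 1 dpi and 10 at 3 dpi, and their summed signal was 10.1, 9.25 and 9.44, then 17.6, 15.5 and 15.8, then 22.8, 19.4 and 19.7, with Egfl7, a secreted vessel protein, the brightest. Of 16 macrophage markers, 6 were higher and 2 lower at 1 dpi and 12 were higher at 3 dpi. Their summed signal was 67.1, 60.4 and 58.2, then 93.2, 87.8 and 92.2, then 171, 167 and 164, with Csf1r, a growth factor receptor of macrophages, the brightest. Their part in the results for the members was not tested.

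The other lists moved differently. Of 7 monocyte markers, limma called 0 at 1 dpi, where 3 were higher and 2 lower at an unadjusted p under 0.05 by both tests, and 2 were called higher at 3 dpi, with Chil3 the brightest and summed signals of 326, 299 and 298 in Ctrl, 441, 422 and 416 at 1 dpi and 328, 297 and 315 at 3 dpi. Of 13 neutrophil markers, 3 were higher at 1 dpi, with Mpo, for myeloperoxidase, the brightest. At 3 dpi 0 were called in limma, and 1 was higher and 2 lower at an unadjusted p under 0.05 by both tests. Their summed signals were 1309, 1338 and 1330, then 2155, 2019 and 2000, then 1415, 1273 and 1344. On every array, the neutrophil and monocyte sums were above the megakaryocyte sum, so marker genes of other cells were bright in these samples. Sums of different probes are not shares of cells. Which cells the RNA of the members came from was not tested. Of 9 B cell markers, 8 were lower at both times, and Rag1, the tenth, is not counted, since it was well above background in Ctrl alone. Cd79b, a part of the B cell receptor, was the brightest, and the summed signals of all 10 were 29.6, 28.0 and 28.7, then 5.90, 5.66 and 5.83, then 5.74, 5.57 and 5.57. Of 10 erythroid markers, 8 were lower and 1 higher at 1 dpi and 8 were lower at 3 dpi, with 7 lower at both times. The erythroid sum was 65.4, 52.1 and 56.3, then 137, 133 and 135, then 59.2, 57.3 and 57.9. Its brightest gene, Hemgn, for a nuclear protein of blood precursors, was the erythroid marker called higher at 1 dpi, by 1.45 (adjusted p = 2.06e-05), and its other tested probe was at -2.01. Without Hemgn, the sum was 9.06, 9.07 and 9.07 in Ctrl, 2.55, 2.11 and 2.02 at 1 dpi and 2.71, 2.66 and 2.58 at 3 dpi. The part of these lists in the results was not tested either.

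**Figure D5:**
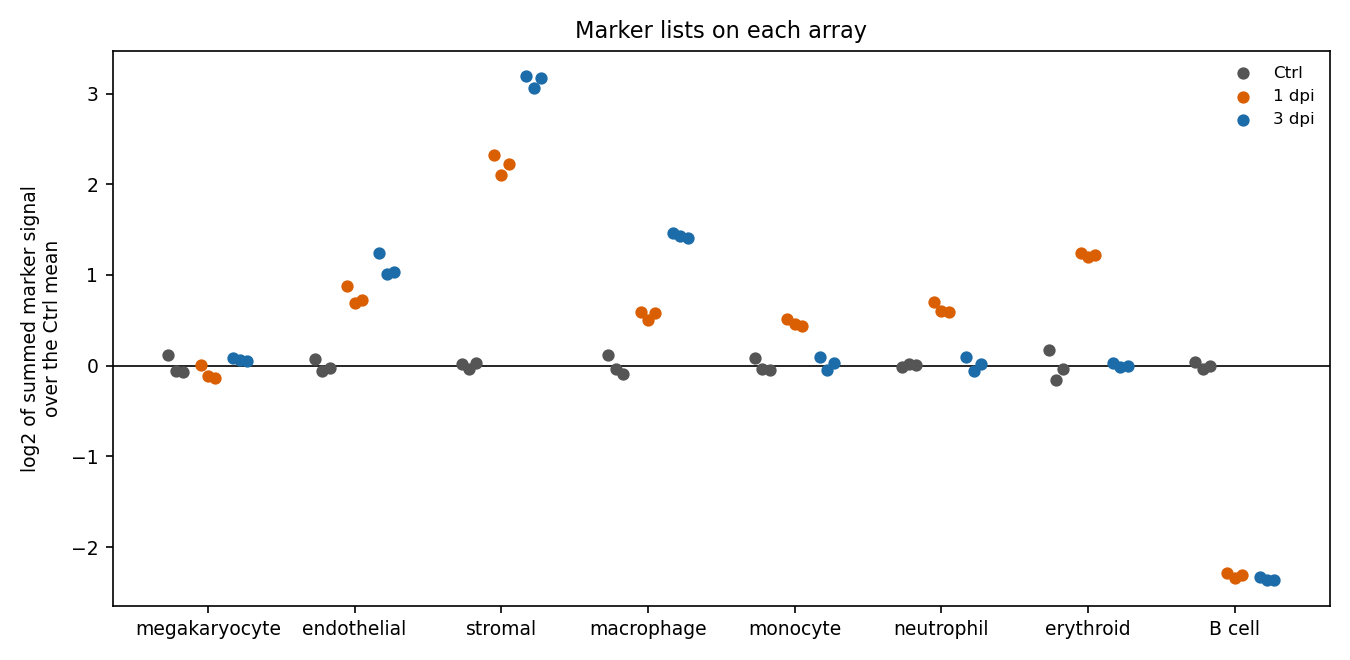
Summed signal of each marker list (x axis) as log2 of the ratio to its Ctrl mean (y axis), with 1 point per array, coloured by group. Stromal, endothelial and macrophage sums are higher at both times, and B cell sums are lower. Megakaryocyte sums stay near the line at 0 with this scaling.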

How the data were processed

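Total RNA of cells sorted as mMKs from 9 mouse samples was measured on Agilent arrays in 1 colour (Cy3). The study's methods describe another platform. Per the file headers, Agilent Feature Extraction 10.7.1.1 gave background-subtracted processed signals as intensity, which was not scaled between arrays, and the authors deposited a table of normalized values on a log2 scale. It has 27275 genes, with a single value for each. For the members, the deposited table held the quantile-normalized log2 of 1 probe per gene, often another probe than the brightest. Of 56605 probes, 20 with no usable spot on an array were left out. Names came from a RefSeq accession for 32994 probes and from the files for 23611. Log2 intensity was centred on the array's 75th percentile. A probe was kept if every array of some group had it well above background, and the brightest kept probe stood for its gene. Depth here is the share of spots well above background, and the number of arrays sets the precision. Groups came from the sample labels. limma 3.58.1 (R 4.3.3, with data.table version 1.17.8 and jsonlite 2.0.0) fitted the 3 groups together and made 3 comparisons, two-sided, with Benjamini-Hochberg adjustment over 29410 genes, or over 44300 probes where each probe was tested. The fit was tested on simulated data. A fold against a group with no array well above background was taken against the mean, over its arrays, of the lowest signal well above background. Alternatives were quantile normalization, median centring, normexp (offset 50) with quantile normalization, the deposited table, no filter or a stricter one, the mean of probes, every probe, 2 groups at a time, a replicate block, the slide as a random block, no minimum fold, the methods' two-group test and leaving out each array. The same test at an unadjusted p was added after the data were seen. Samples with the same replicate number were not paired in the main fit, since the labels give different donors. Different donors can still share an experiment, and the replicate block was run as an alternative only. The members and lists were chosen with earlier results of these data known. All members were named. Of the other coagulation and fibrinolysis genes, those called were named, at most 6 with the largest change in a comparison and 2 more after their values were seen, with 1 planned gene of these lists not reported here or counted in them, and those most like a member were the 3 with the highest Pearson correlation. Of each marker list, the brightest gene was named.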

Additional observations from a re-analysis of the deposited data

Results flagged for a closer look

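F13a1 met the rule for a difference between groups: its change from Ctrl differed between the time points, with a log2 fold change of 1.06 at 3 dpi against 1 dpi in the limma fit (adjusted p = 6.41e-05, 3 of 3 arrays at 3 dpi above all arrays at 1 dpi). A_55_P2186125, another probe of F13a1, gave 0.19 (adjusted p = 0.201). Groups of 3 arrays were not tested for single arrays far from the others.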

How the results depend on the processing

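Over 22 alternatives, the call of Serpine2 at 1 dpi was made in 22. Some of these, such as leaving out a 3 dpi array, could not change its fold. The called members and all genes called were 1 and 4468 at 1 dpi, 3 and 2587 at 3 dpi, and 1 and 2588 from 1 to 3 dpi. With arrays centred on their median, no member was called at 3 dpi (0) and 3 from 1 to 3 dpi (F13a1, Tfpi, Thbd). In the deposited table, 3 were called at 1 dpi (Plau, Serpine2, Tfpi) and 1 at 3 dpi (F13a1). With the mean of probes, 2 were called at 1 dpi and 0 from 1 to 3 dpi. With every probe, 2, 5 and 2 were called, and with no minimum fold, 6, 8 and 6. The deposited table differs in normalization and, for 4 tested members, in the probe, and the 2 were not separated. The rules on probes and fold act by construction. For the other settings the cause was not tested. All genes called were 1660, 1142 and 1079 with normexp and quantile normalization, 16444, 9416 and 13125 with no minimum fold, and 4489 from 1 to 3 dpi with no filter.

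Leaving out 1 array at a time gave 1 to 1, 2 to 4 and 1 to 1 members and 3561 to 5367, 2347 to 2768 and 2264 to 2812 genes. Without Ctrl replicate 1, all arrays were on 1 slide, and 3561, 2372 and 2812 genes were called. The replicate block gave 4273, 2498 and 2494 genes, and the correlation of deviations between samples with the same number was -0.107 to 0.128. The slide as a random block gave 3787, 2447 and 2806. The methods' test gave 3360, 2207 and 2524, and at an unadjusted p, added after the data were seen, 3946, 2550 and 2726. Scaling moved the direction of the calls: at 1 dpi 3623 were higher and 845 lower, against 1941 and 1512 with quantile normalization, 1993 and 2087 with median centring and 1915 and 1893 in the deposited table. From 1 to 3 dpi 1169 were higher and 1419 lower, against 1620 and 954, 1743 and 851, and 1736 and 1142.

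Some signs turned. Procr from 1 to 3 dpi was 0.0887 with quantile normalization, 0.16 with median centring, 0.0643 with normexp and 0.0898 in the deposited table. Thbd at 1 dpi was -0.21 with median centring. F13a1 at 1 dpi was 0.83 in the deposited table and 0.23 with the mean of probes, Tfpi at 1 dpi was 0.0412 with the mean of probes, and Plau from 1 to 3 dpi was -0.16 in the deposited table. F3 from 1 to 3 dpi was -0.0564 to 0.0833 over the arrays left out, and negative without 1 dpi replicate 1 or 3 dpi replicate 2. With median centring, the ratio of summed markers at 3 dpi to Ctrl was 0.95 for megakaryocyte, 0.923 for monocyte, 0.925 for neutrophil and 0.906 for erythroid markers, and that of B cell markers from 1 to 3 dpi was 1.11. The cause was not tested. Of 312 member log2 fold changes outside the leave-one-out fits, 271 stayed on the same side of the threshold, 22 newly passed it, 10 no longer did and 9 changed sign. Within those fits, of 216, these were 208, 2, 4 and 2. Signals near background, as for Plat, limit what could be tested.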
